A study of Mus musculus with 60 samples.

Results

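The mouse Hox genes lie in 4 clusters, A to D, and were examined here as the 39 genes of the expression table whose symbol is Hox, the cluster letter and the number of the paralogue, out of 24508 rows in all. No lower limit on expression was applied. Cluster A holds 11 of these genes, cluster B 10, cluster C 9 and cluster D 9. The members include 12 anterior genes (paralogue groups 1 to 4), 11 central genes (groups 5 to 8) and 16 posterior genes (groups 9 to 13).

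Hox genes encode transcription factors with a homeodomain that give cells of the embryo their position along the head-to-tail axis. The order of the genes along each cluster follows the order in which they are expressed along that axis, and genes of the same number in different clusters are paralogues. In the nervous system their expression is known from the hindbrain and spinal cord, where they specify segments and classes of motor neurons. The adult forebrain, to which the hippocampus belongs, is known to keep the clusters largely silent, with Polycomb complexes as the classical repressors.

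The study set wild-type mice (WT) against R6/1 mice, a transgenic model of Huntington's disease that carries the first exon of the human HTT gene with an expanded CAG repeat, driven by the human HTT promoter. Both genotypes were of mixed CBA x C57BL/6 background, in equal parts, and were 30 weeks old. Frozen hippocampal tissue gave 9 RNA-seq libraries per genotype, which the labels describe as independent biological replicates; whether each is 1 animal is not stated. Lamin B1 ChIP-seq of the same tissue, from pools of 5 mice, enters here through 1 list of lamin-associated domains per genotype.

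The 18 RNA libraries held between 12299429 and 16736546 reads on genes, recovered from the deposited values. Hippocampal identity was visible in both genotypes: all 8 markers of hippocampal excitatory neurons were above 0 in all 18 libraries. Their summed level ran from 229.6 to 292.7 RPKM (read density per kilobase of gene, scaled for depth) in WT and from 112.4 to 142.8 RPKM in R6/1. By the test described below, 7 of the 8 fell, as did 17.6% of all rows tested. Since these are bulk samples, fewer cells of a type and less RNA per cell cannot be told apart. All 10 common genes, such as Actb and Gapdh, were above 0 in all 18 libraries. The lowest of them, Tbp, averaged 9.05 RPKM in WT and 8.71 in R6/1, so their detection does not show sensitivity at lower levels.

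Hox RNA was nearly absent from WT hippocampus and present at a low level in every R6/1 library. The 9 WT libraries held 63 Hox reads together, with 3 in the lowest library, a median of 7 and 12 in the highest. The R6/1 libraries held 3863, with 218, 452 and 637 as lowest, median and highest, so the groups did not overlap. Between 2 and 8 Hox genes (median 4) were above 0 in a WT library, and between 28 and 32 (median 29) in an R6/1 library. Intervals and bounds given below cover counting error only.

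Summed over the 39 genes, the WT libraries had a mean of 0.210 ± 0.0779 RPKM and the R6/1 libraries one of 13.3 ± 3.46 RPKM (SD over 9 libraries per genotype). The ratio of these means was 63.1. The R6/1 sum was lowest in replicate 7, at 7.34 RPKM, and highest in replicate 1, at 19.3 RPKM, with a median of 13.2 RPKM. Replicate 7 also had the fewest reads of the R6/1 libraries, 13260306; the part of depth in its low sum was not tested.

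**Figure D1:**
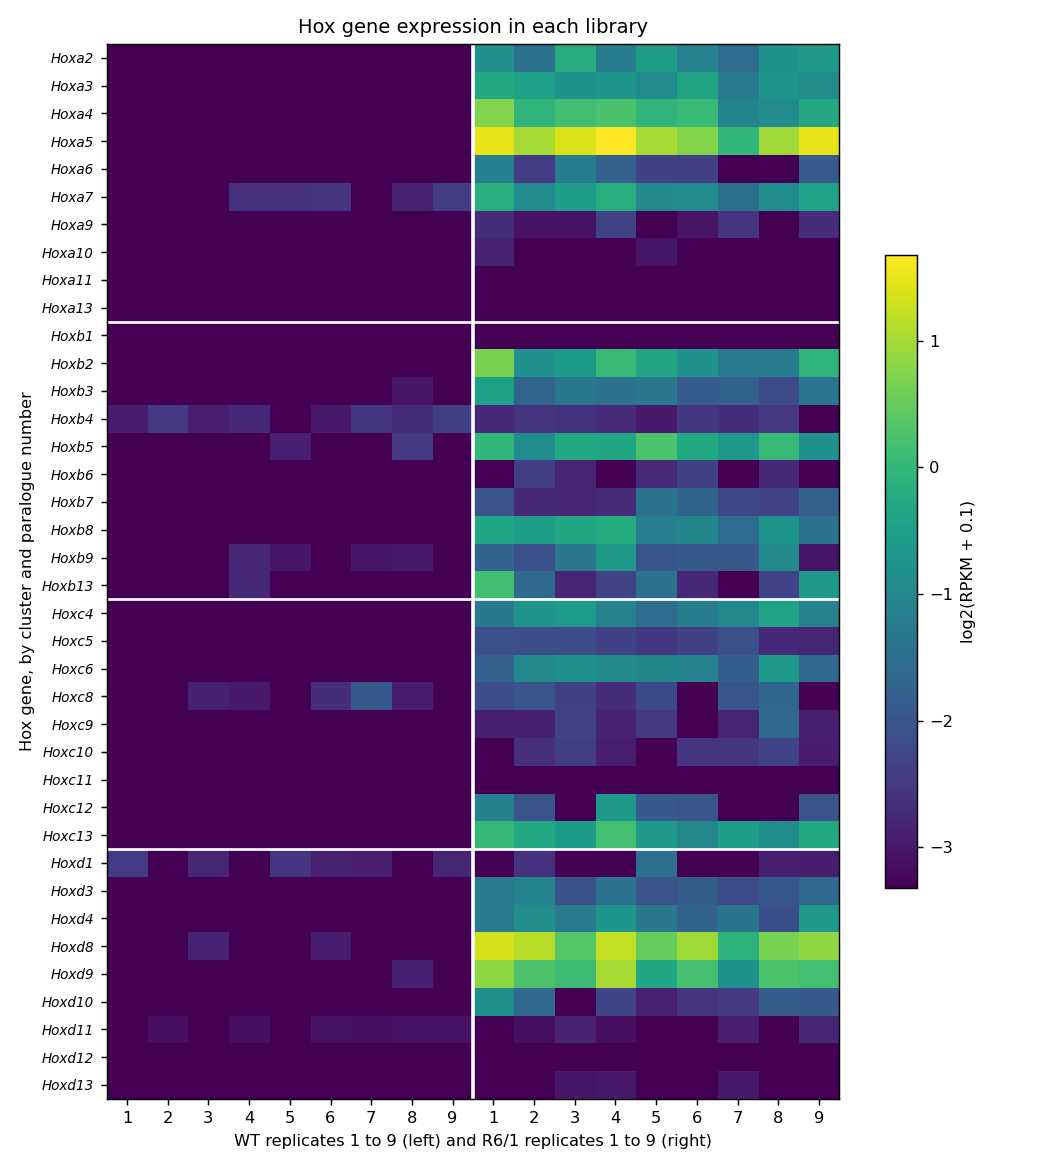
Level of 38 of the 39 Hox genes (rows, by cluster and paralogue number) in the 9 WT and 9 R6/1 libraries (columns), as log2(RPKM + 0.1), with darkest cells at 0 RPKM. The WT side is dark apart from a few cells, while most rows are lit on the R6/1 side, where 28 to 32 of all 39 genes per library are above 0; Hoxa5, Hoxd8 and Hoxd9 are the brightest rows.

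Of the 39 genes, 34 had a value above 0 in at least 1 library and were tested with limma on log2(RPKM + 0.1), with Benjamini-Hochberg adjustment over all 20791 rows tested and a threshold of 0.05. In R6/1, 28 were higher and 0 were lower; over all rows tested, 17.5% were called higher and 17.6% lower. All 34 had reads in R6/1 and 11 of the 39 had any in WT, so many passed the filter through the group in which they were high. The median log2 fold change of the 34 was 1.44, against -0.01 over all rows. Because 0.1 RPKM was added, fold changes on that scale understate the change of genes so low. With genes at 0 in WT set to their lower bound, the median log2 ratio of the genotype levels was 4.42 over 32 genes. Hoxa10 and Hoxd13, with 0 reads in WT and 3 each in R6/1, had no bound and were left out, which favours a high median. In 19 Hox genes every R6/1 library lay above every WT library, which 4.06% of all rows tested did. Each of the 28 calls was made again under every alternative in which the gene was fitted. In the authors' deposited table, 31 Hox genes have an adjusted p-value, of which 27 are higher and 0 lower at 0.05 (20.0% of its rows with an adjusted p are higher), and all 27 are among the 28.

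In WT, 28 of the 39 Hox genes were at 0 in all 9 libraries, and the largest WT value of any member in any library was 0.161 RPKM. Rows at 0 in every WT library and above 0 in every R6/1 library numbered 18 in the whole table. That is 0.425% of the 4238 rows at 0 in all WT libraries. Only 521 of those 4238 were above 0 in any R6/1 library, and the rest could not show the pattern. Of these 18 rows, 14 (77.8%) were Hox genes, among them Hoxa2, Hoxa3, Hoxa4, Hoxa5, Hoxb2, Hoxb7, Hoxb8, Hoxc4, Hoxc5, Hoxc6, Hoxc13, Hoxd3 and Hoxd4. The other 4, named after their values were seen, were Barx1, a homeobox gene outside the clusters (1.78 ± 0.571 RPKM in R6/1), Hoxaas2, a non-coding RNA of cluster A, Serpinb5 and 5730488B01Rik. The reverse pattern, above 0 in every WT library and at 0 in every R6/1 library, was found in 0 rows. Ranked by log2 fold change, Hox genes took 4 of the top 20 places of the table, 15 of the top 50 and 18 of the top 100.

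Hoxa5, which patterns the cervical and upper thoracic axis and is needed for breathing circuits and lung, had the highest level of all. It lies on the reverse strand of chromosome 6 at chr6:52151753-52154586 (NCBIM37, the assembly also called mm9). WT libraries were all at 0. The R6/1 libraries ranged from 0.891 RPKM in replicate 7 to 3.10 RPKM in replicate 4, with a median of 1.92 and a mean of 2.15 ± 0.696 (SD, n = 9). Against a floor of 3 reads over the WT group, the level was at least 173-fold higher, and the log2 fold change was 4.42 (limma adjusted p 6.54e-13), rank 3 of the table.

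Hoxd8 came next, at chr2:74542672-74545990 on the forward strand, a gene of the trunk. It had 2 reads in WT, in replicates 3 and 6. In R6/1 its level was 0.842 RPKM in the lowest library, 1.70 at the median and 2.45 in the highest, and no R6/1 library came near the WT maximum of 0.0391 RPKM. The ratio of the genotypes was 234 (95% counting interval 64.6 to 1941) and the log2 fold change 4.00 (limma adjusted p 1.66e-12). Its neighbour Hoxd9, which takes part in the patterning of limbs and lumbar motor neurons, lies at chr2:74535737-74538265. With 1 WT read, it had 0.485, 1.05 and 1.92 RPKM as lowest, median and highest R6/1 values, a ratio of 302 (53.8 to 11951) with an adjusted p of 4.05e-11 by limma for a log2 fold change of 3.47. These 3 genes were the only members with an R6/1 mean of at least 1 RPKM, and 9 members reached 0.5 RPKM.

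RefSeq promoter windows (GRCm38.p6, 250 bases before to 50 after the annotated start) were found for 22 of the 39 symbols, 24 windows in all. The following 4 are shown because they set the 3 highest genes beside Hoxb4, a gene of cluster B that did not pass the test; CpG dinucleotides are in capitals, and each runs 5′ to 3′ along the gene. Their coordinates are chr6:52204538-52204837 (reverse strand) for Hoxa5, and on the forward strand chr2:74704365-74704664 for Hoxd8, chr2:74697513-74697812 for Hoxd9 and chr11:96318017-96318316 for Hoxb4.
Hoxa5: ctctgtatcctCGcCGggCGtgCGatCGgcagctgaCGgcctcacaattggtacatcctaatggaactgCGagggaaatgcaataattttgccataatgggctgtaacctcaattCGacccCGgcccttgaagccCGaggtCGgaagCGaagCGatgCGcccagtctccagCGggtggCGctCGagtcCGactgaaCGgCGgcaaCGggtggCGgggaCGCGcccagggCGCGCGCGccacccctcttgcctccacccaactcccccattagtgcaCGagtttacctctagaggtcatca
Hoxd8: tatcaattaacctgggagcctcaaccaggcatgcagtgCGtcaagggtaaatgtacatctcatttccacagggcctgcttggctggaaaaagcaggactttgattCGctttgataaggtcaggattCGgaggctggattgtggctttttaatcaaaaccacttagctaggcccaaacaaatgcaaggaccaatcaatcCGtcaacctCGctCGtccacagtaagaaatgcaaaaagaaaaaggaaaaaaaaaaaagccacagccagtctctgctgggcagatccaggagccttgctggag
Hoxd9: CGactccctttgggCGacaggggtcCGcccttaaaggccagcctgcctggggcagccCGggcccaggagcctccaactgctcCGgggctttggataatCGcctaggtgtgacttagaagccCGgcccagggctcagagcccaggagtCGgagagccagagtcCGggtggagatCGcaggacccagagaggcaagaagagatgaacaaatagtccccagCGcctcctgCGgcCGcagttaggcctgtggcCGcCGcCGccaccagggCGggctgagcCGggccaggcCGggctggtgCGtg
Hoxb4: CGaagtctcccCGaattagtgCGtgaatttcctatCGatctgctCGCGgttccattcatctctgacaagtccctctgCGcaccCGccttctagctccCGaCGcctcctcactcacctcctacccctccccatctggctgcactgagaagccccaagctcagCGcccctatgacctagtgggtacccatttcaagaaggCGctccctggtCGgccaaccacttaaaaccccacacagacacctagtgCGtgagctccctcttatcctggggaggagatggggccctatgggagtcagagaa

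These windows hold 29 CpG in Hoxa5, 6 in Hoxd8, 20 in Hoxd9 and 14 in Hoxb4, so the 2 genes with the highest R6/1 levels differ widely in this count. Over the 24 Hox windows the median was 14.5 CpG (4 to 45), against 7 over all 32851 windows of the table. It was 13 in the 13 windows of genes called higher and 15 in the 11 windows of the other Hox genes. The letters TATAAA, searched on both strands, were in 16.7% of Hox windows and 13.6% of all windows. TGATNNAT, letters bound by Hox proteins together with PBX partners, was in 16.7% of Hox windows and 8.85% of all windows, which is 4 Hox windows (Hoxd11, Hoxa2, Hoxb8 and Hoxb1). A match is a run of letters, not a shown binding site.

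In cluster A, which spans chr6:52105366-52210874, 8 of 11 genes were higher, beside 17.5% of all rows tested. Of the others, 1 did not pass the test and 2 were at 0 in all 18 libraries. From Hoxa2 to Hoxa4 the mean R6/1 level was higher with each step in number, though not in every library. In R6/1 replicate 3, for example, Hoxa2 had 0.772 RPKM and Hoxa3 0.494 RPKM. Hoxa2, the selector gene of the skeleton of the second branchial arch, had a mean of 0.453 ± 0.169 RPKM in R6/1. Hoxa3, needed for thymus and parathyroid, had 0.525 ± 0.123, and Hoxa4 0.869 ± 0.352. These 3 were at 0 in every WT library and above 0 in every R6/1 library, at least 34.6, 57.2 and 57.2 times the WT floor (limma adjusted p from 1.95e-12 to 3.36e-10). Hoxa6 was lower than both of its neighbours. It ran from 0 to 0.348 RPKM (median 0.0993, limma adjusted p 0.00124) and overlapped WT because 2 R6/1 libraries were at 0. Hoxa7 was the one member of the cluster with WT reads, 9 in 5 libraries, and rose from 0.0356 to 0.531 RPKM, an R6/1 level close to that of Hoxa3, a ratio of 14.9 (7.62 to 33.1). Hoxa9, a gene of blood stem cells and leukaemia, reached only 0.0376 ± 0.0348 RPKM (limma adjusted p 0.00930). Hoxa10 had 3 reads in R6/1 and 0 in WT (limma adjusted p 0.425), and Hoxa11 and Hoxa13, of the limb and urogenital tract, had none.

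Cluster B, at chr11:96055630-96229570, had 8 of 10 genes higher, beside 17.5% of all rows tested. Hoxb2, a hindbrain gene, went from 0 in WT to 0.312, 0.561 and 1.49 RPKM (lowest, median, highest) in R6/1, at least 47.6-fold. Hoxb5, known from neural crest and the gut's nervous system, had 0.442, 0.716 and 1.10 RPKM, against 3 WT reads, a ratio of 58.1 (19.6 to 284). Hoxb8, whose loss in mice causes excessive grooming, had 0.247, 0.499 and 0.751 RPKM, at least 56.3-fold. Every R6/1 library exceeded every WT library for these 3 genes, for Hoxb3 (mean 0.276 ± 0.144 RPKM) and for Hoxb7 (0.130 ± 0.0797 RPKM). Hoxb6 (0 to 0.0978 RPKM, limma adjusted p 0.0258) rested on 7 R6/1 reads. Hoxb9 rose from 0.0134 to 0.233 RPKM (limma adjusted p 6.63e-05). Hoxb13, a marker of prostate and tail end, was the most uneven of these: 0 RPKM in replicate 7, a median of 0.101 and 1.02 RPKM in replicate 1 (limma adjusted p 0.00435), and without replicate 1 its R6/1 mean was 0.167 instead of 0.262 RPKM.

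The other cluster B genes were Hoxb4 and Hoxb1. Hoxb4, which is known for expanding blood stem cells, was the most frequently detected Hox gene in WT, with 16 reads in 8 libraries, and had 19 reads in 8 R6/1 libraries. Its WT values were 0 to 0.0938 RPKM and its R6/1 values 0 to 0.0772 RPKM, a ratio of 1.07 (0.522 to 2.23) with an adjusted p of 0.863 by limma for a log2 fold change of 0.04. The interval of the ratio thus ends below the rise of its neighbours Hoxb3 and Hoxb5, whose lower limits were 23.5 and 19.6. Hoxb1, a gene of the facial motor nucleus, was at 0 in all 18 libraries.

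Cluster C, at chr15:102751534-102867274, had 7 of 9 genes higher, beside 17.5% of all rows tested, and the lowest sum. Its most abundant gene was its last: Hoxc13, a regulator of hair and nail keratins, was at 0 in WT and had 0.399, 0.598 and 1.03 RPKM as lowest, median and highest R6/1 values, at least 68.3-fold (log2 fold change 2.88, limma adjusted p 7.76e-12). Hoxc4 (0.415 ± 0.131 RPKM) and Hoxc6 (0.355 ± 0.127 RPKM), a gene of brachial motor neurons, followed, and Hoxc5 had 0.0982 ± 0.0358 RPKM; in these 3 the groups did not overlap. Hoxc9, Hoxc10 and Hoxc12 passed the test at 0.0663, 0.0517 and 0.168 RPKM but were at 0 in at least 1 R6/1 library. Hoxc8, known from thoracic and brachial motor columns, had 11 WT reads and 34 R6/1 reads, a ratio of 2.79 (1.38 to 6.11), and missed the threshold (log2 fold change 0.56, limma adjusted p 0.0710). That call depended on single libraries: without WT replicate 7, which alone held its WT maximum of 0.161 RPKM, its adjusted p was 0.0194, and without R6/1 replicate 6 or 9, where it was at 0, 0.0253 and 0.0251. Hoxc11 was at 0 throughout.

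In cluster D, at chr2:74506367-74603200, 5 of 9 genes were higher, beside 17.5% of all rows tested: Hoxd8 and Hoxd9, above, with Hoxd3, Hoxd4 and Hoxd10. Hoxd3 had 0.125, 0.178 and 0.371 RPKM and Hoxd4, a hindbrain and neck gene, 0.129, 0.309 and 0.541 RPKM as lowest, median and highest R6/1 values, both with WT at 0. Hoxd10, a gene of lumbar motor neurons, ran from 0 to 0.460 RPKM (median 0.107, limma adjusted p 6.49e-04). Both ends of the cluster did not pass the test. Hoxd1, which is known from pain-sensing neurons, had 8 WT and 11 R6/1 reads (log2 fold change -0.02, limma adjusted p 0.965), and 7 of the latter came from replicate 5. Hoxd11 had 6 WT and 10 R6/1 reads (limma adjusted p 0.676), Hoxd13, the digit gene, 0 and 3 (limma adjusted p 0.261), and Hoxd12 none.

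Between clusters, the summed levels had nearly the same order in every R6/1 library. Cluster A had 4.89 ± 1.44 RPKM (2.25, 4.55 and 6.95 as lowest, median and highest), cluster D 3.57 ± 1.13 (1.88, 3.35 and 5.22), cluster B 2.89 ± 0.974 (1.62, 2.65 and 5.09) and cluster C 1.92 ± 0.393 (1.41, 2.02 and 2.59). A exceeded each of the others in 9 of 9 libraries, and B and D each exceeded C in 9 of 9, whereas B was above D in 2 of 9. The closest of these were A over D and B over C, each with a ratio of 1.02 in 1 library. Cluster A made up 30.6% to 44.2% of a library's Hox sum. In WT the 4 sums were 0.0356, 0.0826, 0.0347 and 0.0575 RPKM for A to D and rested on 9, 26, 11 and 17 reads, 16 of those in cluster B being from Hoxb4. The sums and part of their order lean on single genes. Without the most abundant gene of each cluster, the R6/1 means were 2.75 RPKM in A, 2.16 in B, 1.88 in D and 1.26 in C, and B was then above D in 7 of 9 libraries. A remained above D and C in 9 of 9 and above B in 8 of 9. The median level of a member was highest in B, at 0.247 RPKM, against 0.147 RPKM in D.

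**Figure D2:**
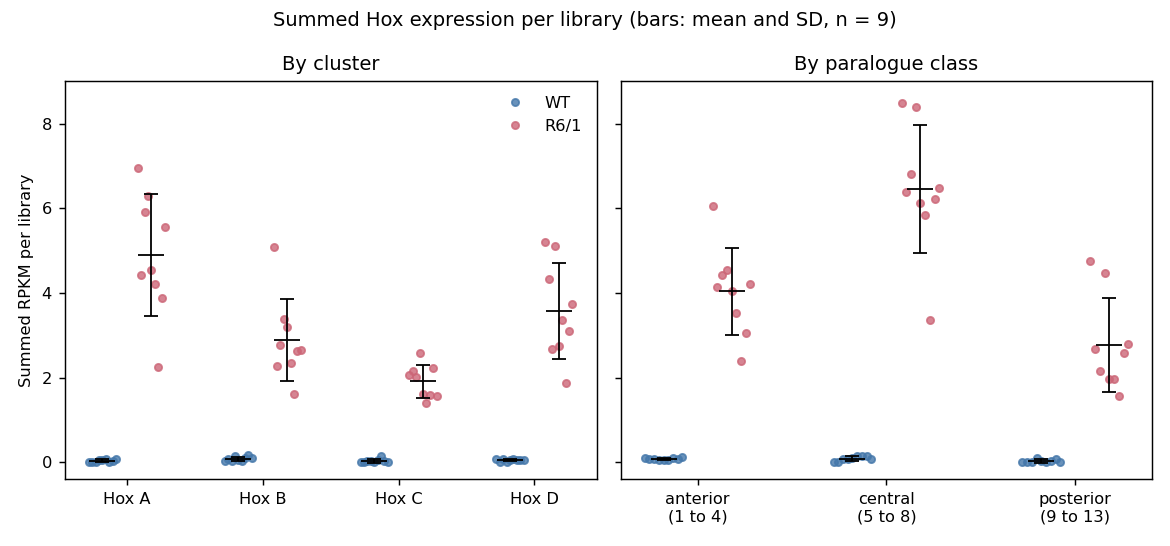
Summed RPKM per library by cluster (left) and by paralogue class (right), with 1 point per library, and the mean and SD (n = 9) as black bars. The R6/1 points of every group lie above all WT points; cluster A and the central class are highest and cluster C and the posterior class lowest.

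By paralogue number, the central genes had the highest sum, 6.46 ± 1.51 RPKM in R6/1 (3.36, 6.40 and 8.50 as lowest, median and highest), followed by the anterior genes with 4.04 ± 1.03 (2.41, 4.13 and 6.06) and the posterior genes with 2.77 ± 1.12 (1.57, 2.59 and 4.75). This order held in 9 of 9 libraries, with anterior over posterior by a factor of 1.01 to 2.06. Per member, groups 5 and 8 had the highest mean levels, 0.990 and 0.762 RPKM, and group 11 the lowest, 0.0055 RPKM. Among anterior genes 9 of 11 tested were called higher, among central genes 10 of 11 and among posterior genes 9 of 12, against 17.5% of all rows tested. The remaining 1 anterior and 4 posterior genes were at 0 in all libraries. Every R6/1 library lay above every WT library in 9 anterior, 8 central and 2 posterior members, and in 4.06% of all rows tested. Drawn as early (1 to 8) against late (9 to 13) paralogues, the R6/1 sums were 10.5 ± 2.46 and 2.77 ± 1.12 RPKM, and as 1 to 6 against 7 to 13 they were 7.55 ± 1.79 and 5.72 ± 1.84 RPKM; early was above late in 9 of 9 libraries either way.

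The fall with paralogue number was not shared by the 4 clusters. Spearman's rho between paralogue number and R6/1 mean level was -0.67 over the 11 genes of A and -0.58 over the 9 of D, but 0.10 over the 10 of B and -0.08 over the 9 of C, where the highest-numbered gene had the highest level; over all 39 it was -0.34. These genes share libraries and are a description. Among the late genes Hoxd9 and Hoxc13 had the highest levels, followed by Hoxb13 and Hoxb9, while group 11 had only the 10 reads of Hoxd11 in R6/1.

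**Figure D3:**
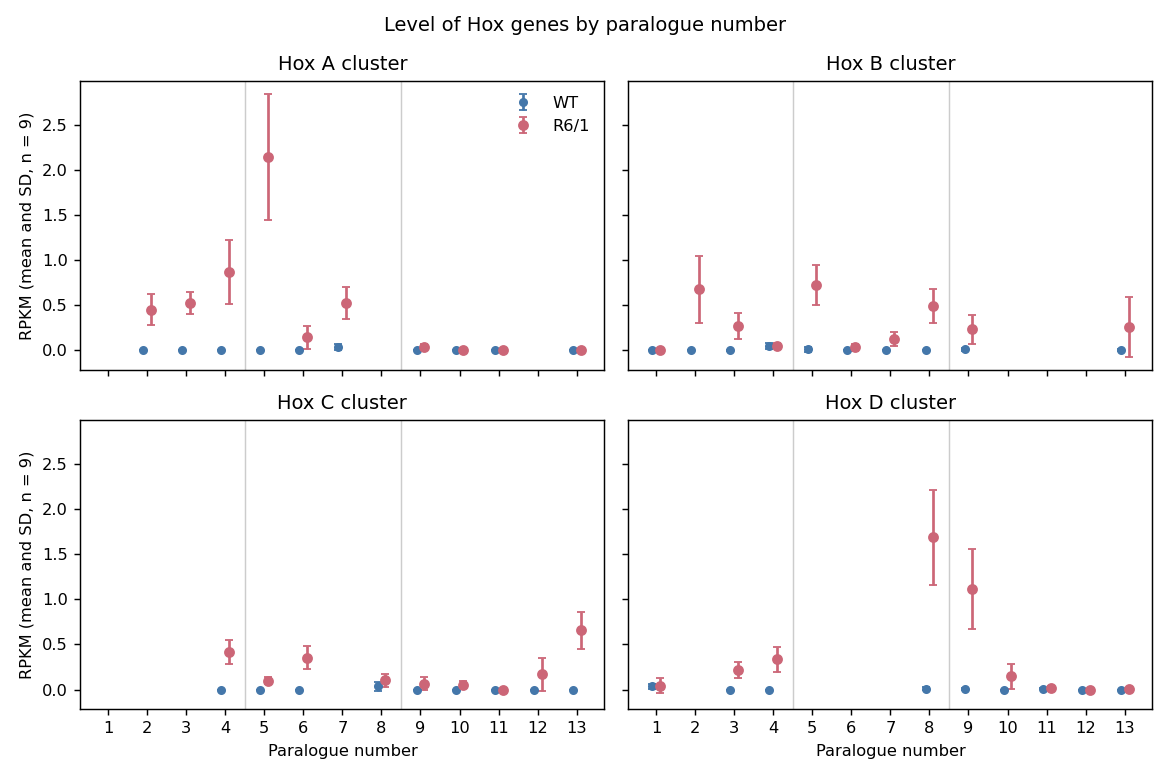
Mean RPKM and SD (n = 9) of 38 of the 39 genes by paralogue number, in 1 panel per cluster; thin lines separate anterior, central and posterior genes. R6/1 levels climb from Hoxa2 to Hoxa5, dip at Hoxa6 and are low after Hoxa7, peak at Hoxd8 and Hoxd9 in cluster D, and are highest at Hoxc13 in cluster C.

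Variation among R6/1 libraries differed by gene. Of the genes at 0.5 RPKM or more, the coefficient of variation was lowest for Hoxa3, at 23.5%, and highest for Hoxb2, at 55.0%; among all genes called higher it reached 126%, for Hoxb13. Exons of 11 members overlap another gene on the same strand (among them Hoxb7 with Hoxb8, Hoxd3 with Hoxd4, and Hoxa2 with Hoxa3) and 8 overlap one on the opposite strand, in GENCODE. The library kit keeps strand, but whether counting used it is not given in the sources used here, so levels within these pairs are uncertain.

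Other transcripts of the Hox loci were read from a list of 21, of which 17 were in the table, 9 of them at 0 in all libraries. Of the 8 tested, 5 rose and 0 fell, beside 17.5% and 17.6% of all rows tested. Among the 4 tested by the authors, 3 rose and 0 fell. Hottip, Hoxaas2, Hoxaas3, Hoxd3os1 and Mir10b were at 0 in every WT library. They entered the test only through R6/1 and could not fall. Hotairm1, a non-coding RNA of cluster A that is known from myeloid cells, had 0.236 RPKM in the lowest and 2.41 RPKM in the highest R6/1 library (mean 1.12 ± 0.677), against 1 WT library above 0, at 0.311 RPKM, so the groups overlapped (limma adjusted p 9.12e-07). Hoxaas2 went from 0 in WT to 0.261 ± 0.0869 RPKM, and Hoxd3os1, Haglr and Evx1 were also higher (limma adjusted p 3.11e-05, 0.0133 and 0.0215). Haglr was not past the threshold in the authors' deposited table (adjusted p 0.0825). Hotair, of cluster C, and the miRNA rows Mir10a, Mir196a-1, Mir196a-2, Mir196b and Mir615 were listed at 0, in libraries made for messenger RNA.

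The protein-coding genes nearest to each cluster were read as well. Skap2, 142.8 kb beside cluster A, rose from 7.32 ± 0.892 to 11.5 ± 0.889 RPKM (adjusted p 2.14e-07 by limma, log2 fold change 0.65), and Mtx2, 60.7 kb beside cluster D, from 21.0 ± 1.41 to 24.7 ± 2.63 RPKM (0.23, limma adjusted p 0.00469). Ttll6 and Skap1 beside cluster B and Smug1 beside cluster C did not pass the test (limma adjusted p 0.216, 0.710 and 0.244), and Evx2 was at 0. WT means of these neighbours were 21.0 RPKM for Mtx2, 7.32 for Skap2, 3.80 for Smug1, 0.587 for Skap1 and 0.120 for Ttll6. No Hox gene averaged over 0.0492 RPKM in WT. Evx1, on the other side of cluster A, was as low as the Hox genes, at 0.00858 RPKM in WT.

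Lamin B1 lines the inner nuclear membrane, and the domains that it contacts are usually gene-poor and silent. Of the 39 Hox start sites (GENCODE, NCBIM37), 0 lay inside a domain in the WT list and 0 in the R6/1 list, 0 genes touched one, and 0 started within 100 kb of one. Over 22380 protein-coding genes, 20.0% of starts were inside a WT domain and 16.1% inside an R6/1 domain; the Hox genes are 4 places rather than 39. The nearest domain was 4.70 Mb from cluster A in WT and 4.66 Mb in R6/1, 2.63 and 2.74 Mb from B, 30.45 and 30.42 Mb from C, and 2.58 and 5.95 Mb from D. There is 1 list per genotype, so these distances have no replicate check.

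Hox proteins bind DNA with TALE partners, the PBX, MEIS and PREP (Pknox) families. Of 9 such genes 3 rose and 3 fell, beside 17.5% and 17.6% of all rows tested. Meis1 had 0.282 to 0.832 RPKM in WT and 1.12 to 1.76 RPKM in R6/1, without overlap (log2 fold change 1.24, limma adjusted p 2.03e-06), whereas Pbx2 fell from 19.0 ± 0.828 to 14.6 ± 0.688 RPKM, also without overlap (limma adjusted p 5.48e-08). Meis3 and Pbx4 fell as well, and Pknox1 and Pbx3 rose, by at most 0.42 on the log2 scale.

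Retinoic acid, the signal that switches on anterior Hox genes in the embryo, is made by Aldh1a enzymes, cleared by Cyp26 enzymes and read by RAR and RXR receptors. Of 18 genes of that pathway 1 rose and 7 fell, beside 17.5% and 17.6% of all rows tested. The receptor gene Rxra rose from 7.89 ± 0.741 to 11.2 ± 0.743 RPKM. Aldh1a3 fell from 0.350 ± 0.122 to 0.0855 ± 0.0441 RPKM (adjusted p 1.28e-05 by limma, log2 fold change -1.27), and Dhrs3, Stra6 and Cyp26b1 fell too (-0.74, -0.94 and -0.97). With libraries scaled to their own read totals these counts were 2 and 6.

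Of 11 regulators that act on Hox clusters in embryos, 9 were tested, 1 rose and 2 fell, shares near the 17.5% and 17.6% over all rows. With own-total scaling, quantile normalization, voom or R6/1 replicate 5 left out, 2 rose. Gdf11, the ligand that advances posterior Hox expression, fell from 6.24 ± 0.942 to 3.99 ± 0.397 RPKM (limma adjusted p 7.85e-06), and Egr2 (Krox20), the hindbrain activator of Hoxa2 and Hoxb2, from 1.92 ± 1.40 to 0.512 ± 0.279 RPKM (limma adjusted p 0.0102). Men1, a partner of MLL methyltransferases, rose by 0.14 on the log2 scale, Kmt2a and Kmt2b did not pass the test, and Cdx1 and Cdx2 were at 0 in all libraries.

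Of 22 core Polycomb genes 11 rose and 2 fell, where 17.5% and 17.6% of all rows tested did. Cbx8 rose from 4.48 ± 0.430 to 8.19 ± 0.871 RPKM (adjusted p 7.44e-09 by limma, log2 fold change 0.85) and Bmi1 by 0.40. Cbx6 fell by 0.31 on the log2 scale. The methyltransferase genes Ezh1 and Ezh2 did not pass the test (log2 fold changes -0.09 and -0.06). Scaling to own read totals gave 13 higher and 1 lower, as Ring1 then missed the threshold.

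Homeobox and paired-box genes outside the clusters were taken from the paired-box, distal-less, sine oculis, LIM, NK and Iroquois families. Of 44 tested, 14 rose and 5 fell (14 and 2 with own-total scaling), beside 17.5% and 17.6% of all rows tested. Their median log2 fold change was 0.06. Pax2, a midbrain-hindbrain and kidney gene, rose from 0.111 ± 0.0609 to 7.03 ± 1.19 RPKM (adjusted p 1.47e-13 by limma, log2 fold change 5.13), Lhx4 from 0.0118 ± 0.0246 to 0.874 ± 0.189 RPKM and Dlx4 from 0.0584 ± 0.0626 to 1.02 ± 0.395 RPKM, all without overlap.

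**Figure D4:**
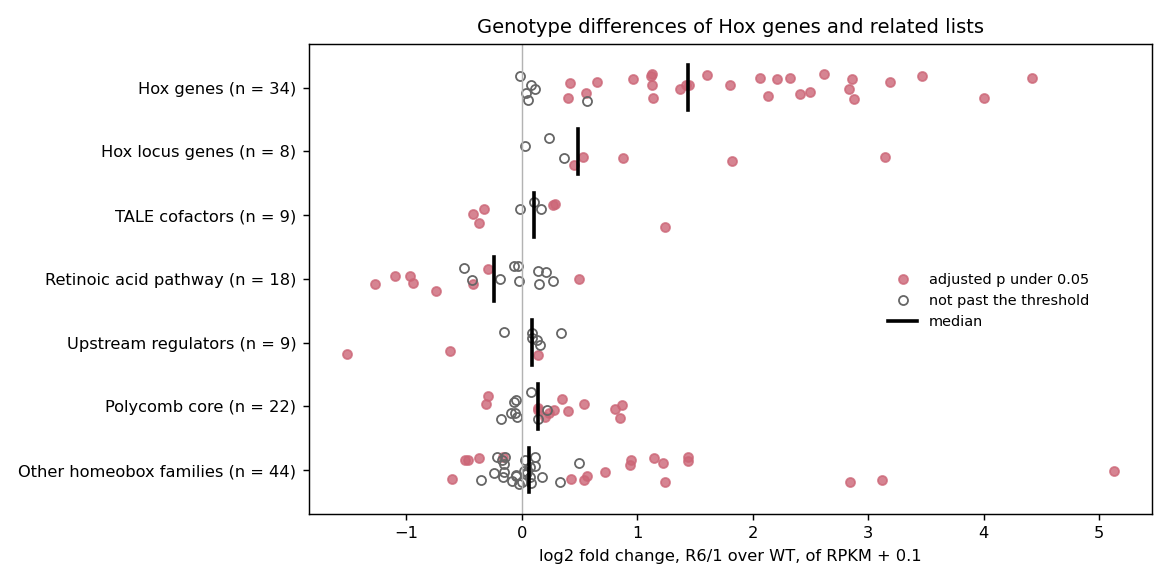
Log2 fold change of each tested gene (1 point per gene, R6/1 over WT, of RPKM + 0.1) in 7 lists, with filled points past an adjusted p of 0.05 and black bars at the median. The Hox genes lie from -0.02 to 4.42 with a median of 1.44, and the other transcripts of the Hox loci have a median of 0.49. The medians of the cofactor, retinoic acid, upstream regulator, Polycomb and other homeobox lists lie between -0.24 and 0.14.

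Markers of cell types that the dissected tissue could hold were read beside the Hox values. Of 8 markers of hindbrain and spinal neurons, 4 rose and 1 fell, where 17.5% and 17.6% of all rows tested did. Their sum was 0.536 to 2.22 RPKM in WT and 1.93 to 3.37 RPKM in R6/1, and En1 had the largest rise among them. En1 (0.00546 ± 0.0108 to 1.57 ± 0.456 RPKM) and Slc6a5, the glycine transporter gene (0.00828 ± 0.0176 to 0.217 ± 0.217 RPKM), did not overlap between genotypes, and Tph2 and Fev rose with overlap. Slc5a7, the choline transporter gene, fell (limma adjusted p 0.0184), and Slc6a4 and Chat did not pass the test. Of 6 choroid plexus markers 0 passed the test, and their sum varied in both genotypes (25.8 to 1075 RPKM in WT and 39.0 to 1741 RPKM in R6/1). Endothelial, mural, fibroblast, blood, oligodendrocyte and muscle markers had 0 rises among 28 tested, with 1, 2, 1, 1, 4 and 2 falls. Over the alternatives the endothelial falls were 1 to 3 (3 without WT replicate 1), the mural falls 1 to 2 (Pdgfrb missed the threshold in 19 of 30 settings) and the oligodendrocyte falls 2 to 4 (2 with own-total scaling). The part of these markers in the Hox result was not tested.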

How the data were processed

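Hippocampal RNA from 9 WT and 9 R6/1 samples was used, with 1 list of lamin B1 domains per genotype. The submitters' processing notes name TopHat, Bowtie, DESeq2 and mm9; versions, gene counter and strand setting are not given in the sources used here. The authors deposited RPKM per gene and library, and a comparison table with mean normalized counts (a signal scaled by size factors), shrunken log2 fold changes, a test score and p-values; the deposited score per domain was not used. RPKM times the ratio of mean normalized count to mean RPKM gave whole reads for 99.66% to 99.77% of values under 60 reads (tolerance 0.05 reads); these reads served for totals, floors and 95% exact counting intervals.

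Rows above 0 RPKM in at least 1 library were tested with limma 3.58.1 (R 4.3.3; trend, two-sided, Benjamini-Hochberg, 0.05) on log2(RPKM + 0.1), after tests on simulated data. Planned for single description were the members past 0.05, the 10 with the highest means and the 3 with the largest change among the others. From other lists, at most 4 with the smallest adjusted p were planned. Further members and list genes are named beside these, outside that rule. Sums over members carry no test. A few genes of the lists are counted but not reported singly here. Members and lists were chosen with earlier results of these data known. Gene positions come from GENCODE on NCBIM37, promoters from RefSeq on GRCm38.p6. Alternatives were other pseudocounts (0.5 and 1), filters (0.1 and 0.5 RPKM), scalings, weights, a replicate block, voom on recovered reads, the authors' table and each library left out.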

Additional observations from a re-analysis of the deposited data

Results flagged for a closer look

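In 56 groups of 9 libraries (members with values, and sums), 6 had a library whose gap to the next exceeded Dixon's 95% critical ratio of 0.493. WT groups with values above 0 in only 1 or 2 libraries, such as those of Hoxb3 and Hoxb5, are not among the 6. About 2.8 would be expected by chance in normal, independent groups. These groups hold many zeros and share libraries, so that figure is only a rough guide. Hoxb3 was 0.621 RPKM in R6/1 replicate 1, with 0.307 RPKM next, and Hoxd10 was 0.460 RPKM in the same library, with 0.226 RPKM next; this library also had the highest Hox sum. Hoxc9 was 0.231 RPKM in R6/1 replicate 8, against 0.0996 RPKM next. Hoxd1 was 0.261 RPKM in R6/1 replicate 5, against 0.0643 RPKM next. Hoxc8 was 0.161 RPKM in WT replicate 7, against 0.0584 RPKM next, and the WT sum of cluster C in that replicate is the same value, since no other gene of the cluster had reads there.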

How the results depend on the processing

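The count of 28 Hox genes higher and 0 lower was the same with pseudocounts of 0.5 and 1, both other scalings, no trend, library weights and voom, and was 28 to 29 higher and 0 lower with 1 library left out. Filters on the mean level left 18 genes at 0.1 RPKM and 3 at 0.5 RPKM, all higher; since no member averaged over 0.0492 RPKM in WT, they passed only through R6/1, and the filter fixed this direction. Over all rows, 7291 were called (3638 higher, 3653 lower), with 6921 to 7524 when 1 library was left out. Scaling to own read totals moved the split to 5209 higher and 2784 lower, quantile normalization to 4376 and 3222, and voom to 5230 and 2835. Replicate numbers did not pair the samples: same-number correlations ran from -0.063 to 0.196, 3 of 9 were over 0.1, and 1 WT library correlated best with its own number. With the replicate block, 28 Hox genes were higher and 7343 rows were called.

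Among single genes, the sign of 2 near 0 turned. Hoxb4 was -0.02 with library weights and -0.03 without WT replicate 5, within a range of -0.03 to 0.11 over the libraries left out. Hoxd1 was 0.01 with a pseudocount of 0.5, 0.01 with 1, 0.01 with quantile normalization, 0.06 in the authors' deposited table, and -0.20 to 0.04 with 1 library left out (0.00 without WT replicate 3). Hoxc8 passed the threshold without WT replicate 7 (0.69) and without R6/1 replicate 6 or 9 (0.68 each). The two-sided exact permutation test over libraries gave p 0.0423 for Hoxc8, which is not adjusted for the rows tested. Leaving out the highest gene gave R6/1 means of 2.75 RPKM for cluster A, 1.26 for C, 1.88 for D and 4.31 for the central class. With 1 library left out, the R6/1 means were 4.64 to 5.22 RPKM for A, 2.61 to 3.05 for B, 1.83 to 1.98 for C, 3.37 to 3.79 for D, 3.79 to 4.25 anterior, 6.20 to 6.84 central and 2.52 to 2.92 posterior. Depth limits the members with under 20 reads per genotype, for which a gene at 0 is not shown to be silent.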
